A study of Mus musculus with 16 samples.

Results

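The imprinted fetal growth network is described here as 10 mouse genes, Igf2, H19, Dlk1, Peg3, Plagl1, Cdkn1c, Mest, Grb10, Ndn and Igf2r, in newborn lung after a single ozone exposure. They were found by gene name or older synonym among the probes of the array that are not controls. This gave 18 of 41174 probes, and all 10 genes were among the 21623 genes tested. The rule uses names and no measured value, but the 10 genes were put forward with earlier results of these data known. Whole lungs of BALB/c pups, an inbred strain, were profiled on 16 one-colour arrays, 1 lung per array, with 4 lungs in each group. The ozone 6 h and ozone 24 h lungs came from pups that breathed 1000 ppb ozone for 3 h at 3 days of age and were killed 6 h or 24 h after the exposure ended. The air 6 h and air 24 h lungs came from littermates that breathed filtered air for 3 h and were taken at the same times. All pups were of the same strain and age at exposure, and the labels name no engineered allele.

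An imprinted gene is expressed only or mainly from 1 parental allele, for some genes in certain tissues only, and many of the imprinted genes act on growth before birth. In the mouse, Igf2, Dlk1, Peg3, Plagl1, Mest and Ndn are expressed mainly from the paternal allele, while H19, Cdkn1c, Igf2r and, in most tissues, Grb10 are expressed from the maternal allele. Igf2 encodes a fetal growth factor, Igf2r the receptor that carries it to lysosomes, and Grb10 an adaptor that restrains insulin and IGF receptor signalling. Many of these genes are known to decline in mouse organs, lung among them, over the weeks after birth. The arrays read the summed RNA of both alleles, so imprinting itself was not measured. Whether these genes, or the other imprinted genes named below, are imprinted in lung is therefore not shown.

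Of the 10 genes, 6 had several probes, which did not always move alike, so the probes that matter for the comparison between times are shown by the first 30 of their 60 bases, 5′ to 3′. The brighter Igf2 probe was placed by the array design at chr7:149836673-149836709 and the dimmer one at chr7:149837115-149837174, both on the minus strand of mouse build mm9. The first placement spans only 37 bases, fewer than the 60 of the probe. That probe was averaged from 10 spots, where the dimmer one had 1. The brighter H19 probe lay at chr7:149761769-149761828 and the dimmer one at chr7:149762018-149762165, also on the minus strand. For Dlk1 the brighter probe lay at chr12:110698667-110698726 and the dimmer one at chr12:110698428-110698487, on the plus strand. The brightest Peg3 probe lay at chr7:6660440-6660499, the second at chr7:6658774-6658833 and the dimmest at chr7:6674944-6675002, on the minus strand. For Grb10 the order was chr11:11830965-11831024, chr11:11870574-11870633 and chr11:11833580-11834228, on the minus strand, the last spanning 649 bases. The only Igf2r probe, at chr17:12875253-12875263 on the minus strand, was placed over only 11 bases. How the whole of such probes aligns was not tested. No mm9 annotation was used here, so whether a probe reads coding or untranslated sequence is not given.
Igf2, brighter probe: aacatgcattttctggcaaaatcaaagctt
Igf2, dimmer probe: gacagaaactcaaagagtaaattgttataa
H19, brighter probe: ttcctgtaattctgtttctttccttttgtt
H19, dimmer probe: ttcagaagatgctgcaatcagaaccactac
Dlk1, brighter probe: cgctttttgtggtggagtttgctctattgt
Dlk1, dimmer probe: tgcgctacaaccacatgcttcgcaagaaga
Peg3, brightest probe: tcaagagattgaggttgaagaaccatacta
Peg3, second probe: ttgttaccatcgttctttctcatggagtct
Peg3, dimmest probe: tgtacccatatttttagtaagaacaacaca
Grb10, brightest probe: tttctaaatgacgactccgtgtaaccacct
Grb10, second probe: ggcttcaagtactaatgaacaacgatatta
Grb10, dimmest probe: aagattaaaaacttccagatcttaccttgc

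Values are log2 of the probe signal relative to the 75th percentile of its array, so that 0 stands for a signal at that percentile. Of several probes of a gene, the brightest over all arrays stands for the gene unless another is named. The 75th percentile lay between 574 and 946 intensity units, and the share of spots well above background was 65.0% to 83.9%, highest on the array of ozone 6 h replicate 3. All 18 probes passed the filter of well above background on at least 4 arrays. All 17 probes other than the dimmest Peg3 probe were well above background on all 16 arrays. All 6 epithelial, 9 fibroblast and 5 endothelial markers passed the filter. So did all 4 mesothelial, 11 muscle, 5 erythroid and 4 fat markers, so passing it does not identify the tissue. Summed relative signals were 659 to 941 for the epithelial, 94.1 to 151 for the muscle and 51.8 to 92.1 for the endothelial markers. Cartilage markers were low, with summed relative signals of 3.53 to 5.91 over 4 of 7 genes, and Matn1, Matn3 and Cnmd did not pass the filter. Summed fat markers were 1.29 to 2.10 in ozone 6 h lungs and 0.632 to 1.27 in air 24 h lungs. They were 0.965 to 16.5 in air 6 h lungs and 0.894 to 21.1 in ozone 24 h lungs. Xist, the RNA of the inactive X chromosome of females, was above 0 in 2 of 4 ozone 6 h, 3 of 4 air 6 h, 1 of 4 ozone 24 h and 3 of 4 air 24 h lungs.

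The first comparison asks how the network stood in the lungs of air-breathing pups 24 h after the exposure, set against 6 h. Of the 10 genes 6 rose, namely Peg3, H19, Ndn, Igf2r, Plagl1 and Grb10, and 2 fell, Igf2 and Mest, by limma's test with an adjusted p under 0.05, which is the threshold for a call throughout. Over all genes the same comparison called 49.9% of 21623, with 21.4% higher and 28.5% lower. The median log2 difference of the 10 genes was 0.44, against 0.01 over all genes tested. By allele, 3 of 6 paternally expressed genes rose and 2 fell, and 3 of 4 maternally expressed genes rose and 0 fell. Each slide held lungs of 1 time point, and the time points were scanned apart. Hours after exposure, slide, scan and any batch that went with them cannot be told apart in this comparison. No value within a slide exists for it. In whole lung, fewer cells of a type and less RNA per cell cannot be told apart either.

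**Figure D1:**
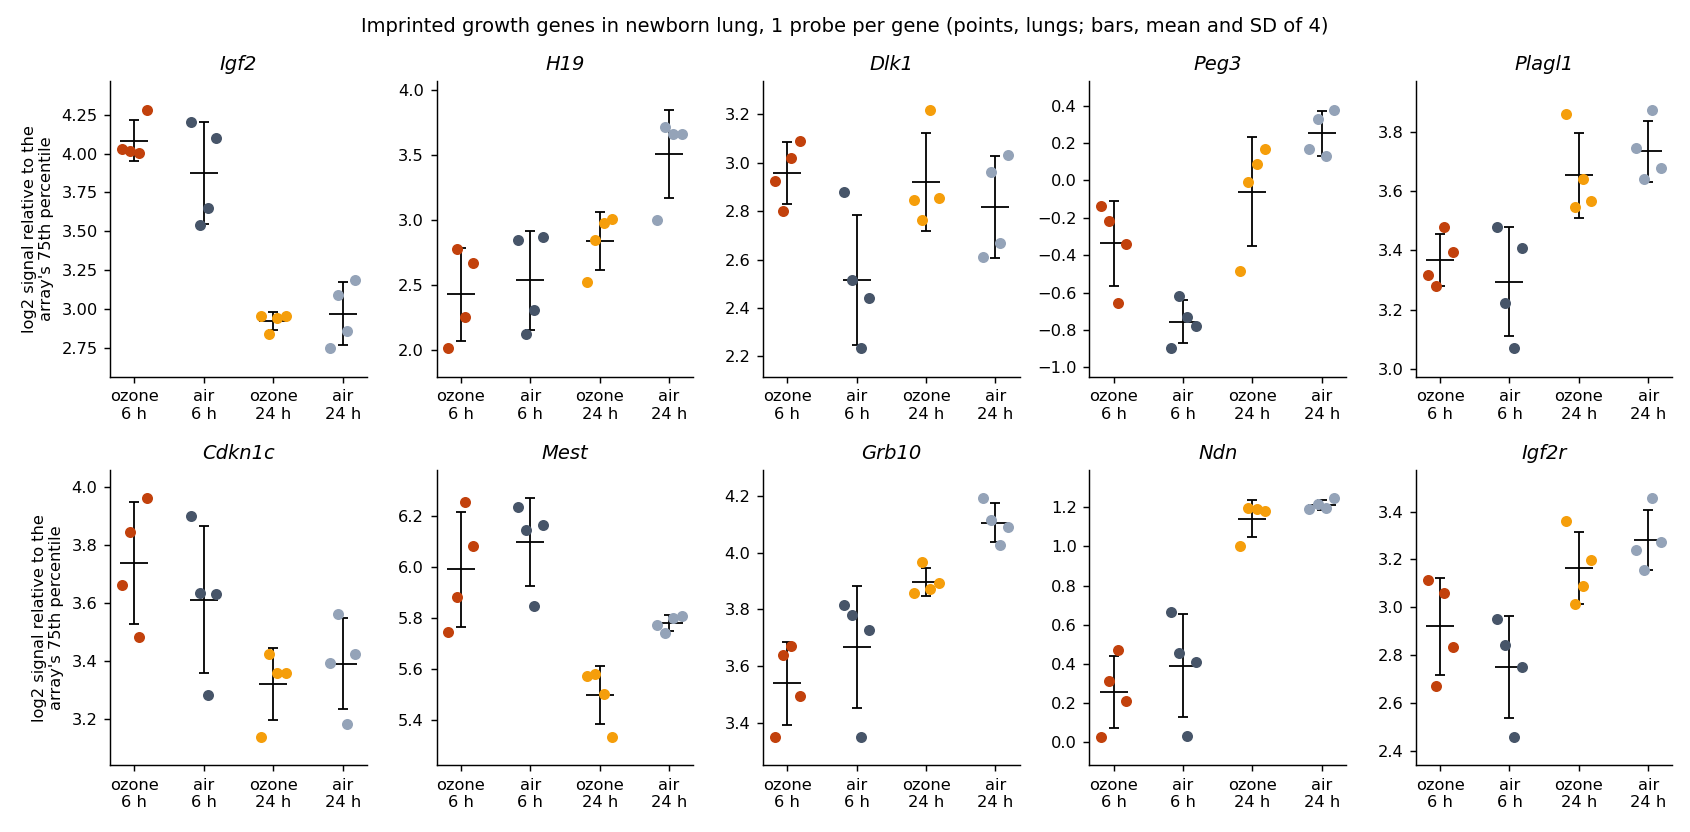
Log2 signal relative to the array's 75th percentile (y axis) of the brightest probe of each of the 10 genes in each lung, by group (x axis). Points are lungs and bars the mean and SD of 4; Igf2 stands between 2.75 and 3.18 in air 24 h lungs, below every air 6 h lung, and Peg3 and Ndn stand above every air 6 h lung.

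Igf2 measured 2.75, 3.09, 2.86 and 3.18 in air 24 h lungs, against 4.20, 3.54, 3.65 and 4.10 in air 6 h lungs. The groups did not overlap, which 48.9% of all genes also met here. The log2 difference was -0.90 ± 0.13 (SE, n = 4 per group), a level 1.87 times higher in air 6 h lungs, with an adjusted p of 1.77e-05 from limma. The ozone lungs stood at like levels, 2.84 to 2.96 at 24 h and 4.00 to 4.28 at 6 h. The dimmer Igf2 probe measured 0.86, 1.12, 0.80 and 1.23 in air 24 h lungs, against 1.53, 0.93, 1.04 and 1.53 in air 6 h lungs. Those groups overlapped, and the difference of -0.25 ± 0.15 was not called (adjusted p = 0.178 from limma), so the fall of Igf2 rests on 1 of its 2 probes.

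H19, the noncoding RNA that lies beside Igf2 and shares its enhancers, moved the other way. It measured 3.00, 3.71, 3.66 and 3.66 in air 24 h lungs, against 2.85, 2.12, 2.31 and 2.87 in air 6 h lungs. The groups did not overlap, and the log2 difference was 0.97 ± 0.20, or 1.96-fold (adjusted p = 0.000606, limma). The dimmer H19 probe gave 0.99 ± 0.19, a spread of 0.02 between the probes. Quantile normalization, which matches the signal distributions of the arrays, gave log2 differences of -0.67 for Igf2 and 1.17 for H19, both called.

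Peg3, a zinc finger protein, measured 0.17, 0.33, 0.13 and 0.38 in air 24 h lungs, against -0.90, -0.62, -0.73 and -0.78 in air 6 h lungs. The 2 groups stood apart, and the log2 difference was 1.01 ± 0.13, or 2.01-fold (adjusted p = 6.58e-06, limma). Its second probe rose by 0.47 ± 0.19 (adjusted p = 0.0426). The dimmest Peg3 probe, well above background on 11 of 16 arrays, gave -0.33 ± 0.67, and with the mean of the 3 probes in place of the brightest one the Peg3 difference was 0.38 and not called (adjusted p = 0.137).

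Ndn encodes necdin, a growth suppressor of the MAGE family. It measured 1.19, 1.22, 1.20 and 1.25 in air 24 h lungs, against 0.67, 0.46, 0.03 and 0.41 in air 6 h lungs. Every air 24 h lung lay above every air 6 h lung, with a log2 difference of 0.82 ± 0.11 or 1.77-fold (adjusted p = 9.22e-06, limma). Igf2r averaged 3.28 ± 0.13 in air 24 h lungs and 2.75 ± 0.21 in air 6 h lungs (SD, n = 4 each). Its log2 difference was 0.53 ± 0.11, and the groups did not overlap.

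Plagl1, a zinc finger transcription factor, averaged 3.73 ± 0.10 in air 24 h lungs and 3.30 ± 0.18 in air 6 h lungs (SD, n = 4 each). Its log2 difference of 0.44 ± 0.09 was joined by 0.75 ± 0.14 on its dimmer probe, both called. Grb10 measured 4.19, 4.11, 4.03 and 4.09 in air 24 h lungs, against 3.82, 3.78, 3.35 and 3.73 in air 6 h lungs. The brightest Grb10 probe rose by 0.44 ± 0.09 and the dimmest by 0.86 ± 0.14, while the second probe, which lies farthest from the others, gave -0.03 ± 0.12 (adjusted p = 0.837). Among all 7333 genes with several kept probes, 43.8% had probes of both signs in this comparison, and the median spread between the probes of a gene was 0.585.

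Mest, a paternally expressed gene of embryonic mesoderm, measured 5.77, 5.74, 5.80 and 5.81 in air 24 h lungs, against 6.24, 6.14, 5.85 and 6.16 in air 6 h lungs. The groups did not overlap. Its log2 difference of -0.32 ± 0.11 was called (adjusted p = 0.0196, limma), but it was 0.14 after quantile normalization (adjusted p = 0.297) and 0.11 after cyclic loess (adjusted p = 0.38), neither called. Without air 6 h replicate 1 the adjusted p was 0.061, and without air 6 h replicate 4 it was 0.0522. Cdkn1c encodes p57, an inhibitor of cell cycle kinases. It averaged 3.39 ± 0.16 in air 24 h lungs and 3.61 ± 0.25 in air 6 h lungs (SD, n = 4 each). The log2 difference of -0.22 ± 0.12 was not called (adjusted p = 0.151), turned to 0.01 after quantile normalization, and was called only without air 6 h replicate 3 (-0.33, adjusted p = 0.0265) among the alternatives run.

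Dlk1 encodes a membrane protein related to Notch ligands, and its 2 probes gave different calls. The brighter one measured 2.61, 2.96, 2.67 and 3.03 in air 24 h lungs, against 2.88, 2.51, 2.23 and 2.44 in air 6 h lungs. The groups overlapped, and 0.30 ± 0.13 was not called (adjusted p = 0.0673, limma). The dimmer one measured 0.96, 1.36, 1.15 and 1.45 in air 24 h lungs, against 0.33, 0.39, 0.01 and 0.07 in air 6 h lungs. Here the groups stood apart, and the probe rose by 1.03 ± 0.12. The brighter probe was called in 6 of 28 alternatives, among them after quantile normalization (0.48, adjusted p = 0.00527), without air 6 h replicate 1 (0.42, adjusted p = 0.00948) and without air 24 h replicate 1 (0.37, adjusted p = 0.0393).

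**Figure D2:**
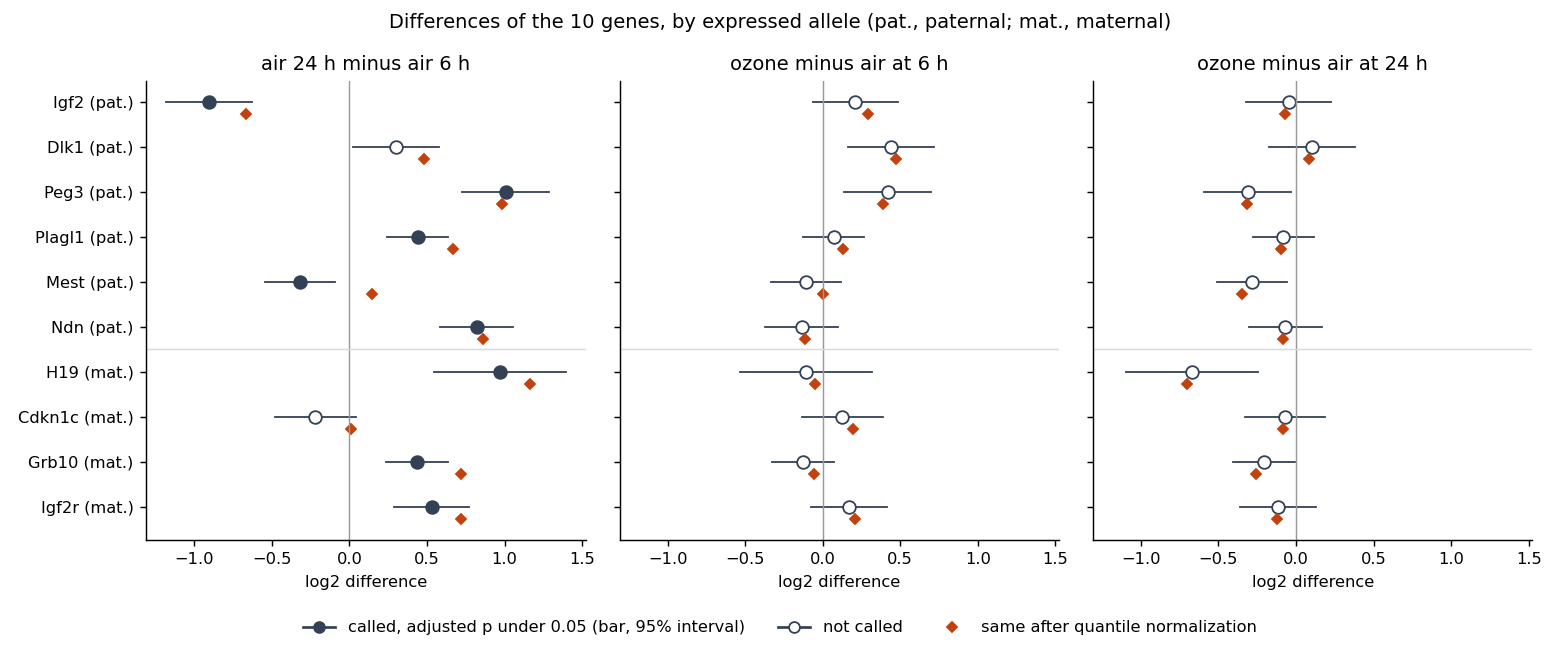
Log2 differences (x axis) of the 10 genes (rows, by expressed allele) in 3 comparisons, with 95% intervals; filled circles passed an adjusted p under 0.05, and diamonds give the same value after quantile normalization. The calls lie in the comparison of the air lungs, and Mest changes sign there with the normalization.

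The difference between the air groups moved with signal level over all genes, which matters because most of these probes were bright. With genes put into 10 equal classes by level, the median log2 difference was -0.32 in the brightest class and 0.50 in the dimmest. Genes within 0.25 of the mean level of Igf2 had a median of -0.27, so Igf2 lay 0.64 below its level, and for Mest the like median was -0.48, so that it lay 0.17 above. H19 lay 1.16, Peg3 1.07, Ndn 0.88, Igf2r 0.72, Plagl1 0.68, Grb10 0.66, Dlk1 0.49 and Cdkn1c 0.03 above the median of genes of like level. Set against genes of their own level, 9 of the 10 genes were thus above and Igf2 alone was below. These are descriptions with no test.

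**Figure D3:**
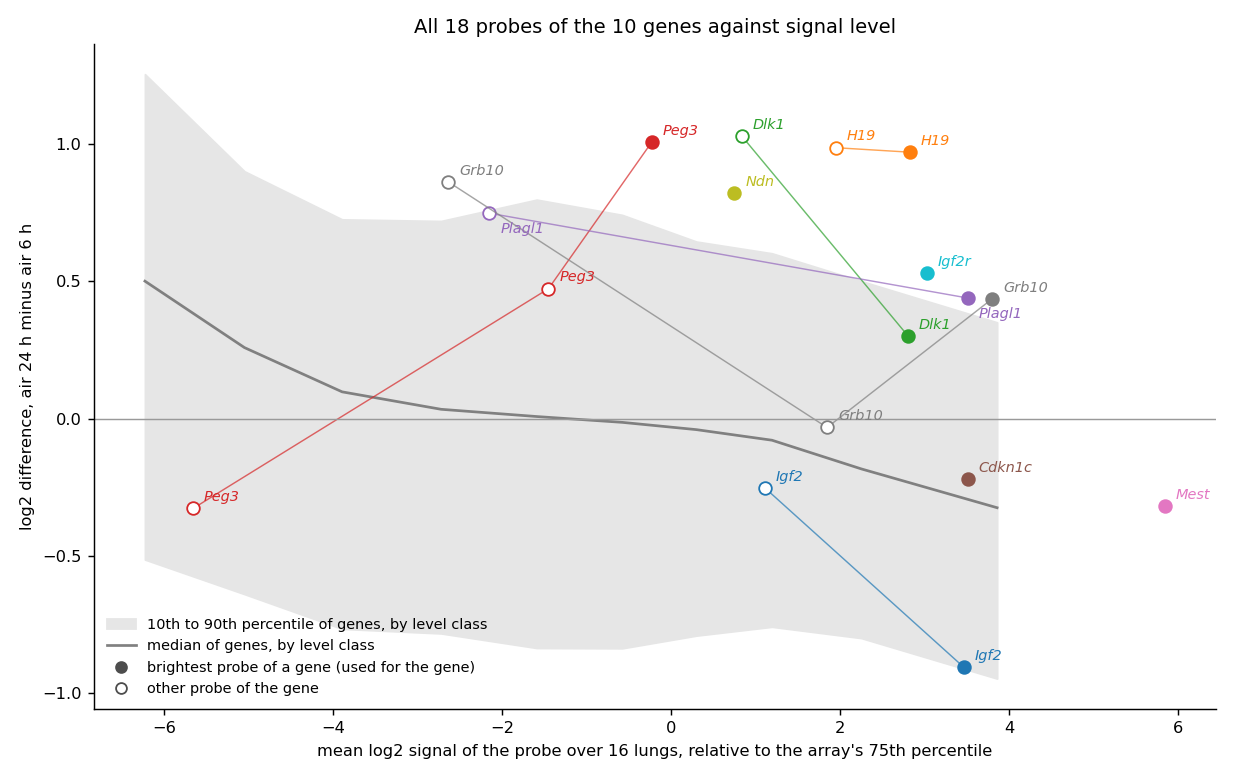
Log2 difference between air 24 h and air 6 h lungs (y axis) of all 18 probes against their mean signal over 16 lungs (x axis); lines join probes of a gene, and the band spans the 10th to the 90th percentile of all genes by level class. The median of all genes runs from 0.50 in the dimmest class to -0.32 in the brightest, and both Igf2 probes lie below it and within the band. Of the 10 brightest probes, those of H19, Peg3, Ndn, Igf2r, Plagl1 and Grb10 lie above the band, and of the other 8 probes 3 do, those of Dlk1, H19 and Grb10 (the dimmest).

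Cell type markers moved in the same comparison, in which 21.4% of all genes rose and 28.5% fell. Of 9 fibroblast markers, 7 rose and 1 fell, with summed relative signals of 394 to 404 in air 24 h lungs and 253 to 384 in air 6 h lungs. Of 5 endothelial markers 4 rose, with sums of 80.5 to 92.1 in air 24 h lungs and 51.8 to 70.4 in air 6 h lungs. Of 4 mesothelial markers 2 fell, Msln by 1.20 and Wt1 by 0.78 on the log2 scale, with sums of 17.1 to 24.3 in air 24 h lungs and 33.8 to 55.8 in air 6 h lungs. Of 7 proliferation markers 5 rose and 1 fell, with sums of 52.3 to 56.0 in air 24 h lungs and 49.2 to 59.1 in air 6 h lungs. Of 6 epithelial markers 1 rose and 2 fell, and of 11 muscle markers 3 rose and 1 fell. Of 6 neural or neuroendocrine markers tested 0 rose and 2 fell, and of 5 erythroid markers 0 rose and 1 fell. No cartilage or fat marker was called, although the median log2 difference of the 4 fat markers was -1.62. The part of these cell types in the values of the 10 genes was not tested.

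Ozone against air was the study's own comparison, and at 6 h it called 0 of the 10 genes, against 4.49% of all genes, 1.36% higher and 3.12% lower. At an unadjusted p under 0.05 limma had 2 of the 10 genes, Dlk1 and Peg3, and 21.0% of all genes. Their median log2 difference was 0.10, against 0.07 over all genes tested. Dlk1 measured 2.92, 2.80, 3.02 and 3.09 in ozone 6 h lungs, against 2.88, 2.51, 2.23 and 2.44 in air 6 h lungs. All but 1 of the air lungs lay below every ozone lung, and the log2 difference was 0.44 ± 0.13 (adjusted p = 0.0663, limma). The dimmer Dlk1 probe measured 0.65, 0.58, 0.53 and 0.82 in ozone 6 h lungs, against 0.33, 0.39, 0.01 and 0.07 in air 6 h lungs. On that probe the groups did not overlap, which 9.49% of all genes met, and the difference was also 0.44 ± 0.12 (adjusted p = 0.0562). Dlk1 was called by limma in 4 of 32 alternatives, and the highest adjusted p among the 32 was 0.759. The 4 were quantile normalization (0.47, adjusted p = 0.0449), cyclic loess (0.49, adjusted p = 0.0362), the fit without air 6 h replicate 1 (0.56, adjusted p = 0.0259) and slide 2 alone (0.72, adjusted p = 0.0388). On slide 1 alone the Dlk1 difference was 0.17.

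Peg3 measured -0.14, -0.21, -0.66 and -0.34 in ozone 6 h lungs, against -0.90, -0.62, -0.73 and -0.78 in air 6 h lungs. A single pair of lungs overlapped, ozone replicate 3 and air replicate 2, and the log2 difference was 0.42 ± 0.13 (adjusted p = 0.0807, limma). It was 0.58 within slide 1 and 0.26 within slide 2, and it was called in 3 of 32 alternatives. These were without ozone 6 h replicate 3 (0.52, adjusted p = 0.0483), without ozone 24 h replicate 1 (0.42, adjusted p = 0.0342) and with array weights (0.49, adjusted p = 0.0136). Leaving out ozone 24 h replicate 1 changed only the error and not the difference at 6 h. The second Peg3 probe gave 0.20 ± 0.19 and the dimmest -0.35 ± 0.67, and with the mean of the 3 probes the difference was 0.09 (adjusted p = 0.828). The other 8 genes lay between -0.13 for Ndn and 0.21 for Igf2, with overlapping groups and adjusted p of at least 0.37. For Igf2 the 95% interval ran from -0.07 to 0.49. Of 7 proliferation markers 5 fell in ozone 6 h lungs, with sums of 33.3 to 37.3 in ozone 6 h lungs and 49.2 to 59.1 in air 6 h lungs, and their part in the values here was not tested.

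At 24 h ozone against air again called 0 of the 10 genes, against 2.01% of all genes, 0.684% higher and 1.32% lower. At an unadjusted p under 0.05 limma had 4 of the 10 genes, H19, Mest, Peg3 and Grb10, all lower, and 13.3% of all genes. Of the 10 differences 9 were below 0, with a median of -0.10 against 0.02 over all genes tested. H19 measured 2.52, 2.84, 2.98 and 3.01 in ozone 24 h lungs, against 3.00, 3.71, 3.66 and 3.66 in air 24 h lungs. Only air 24 h replicate 1 overlapped with the ozone lungs. The log2 difference was -0.67 ± 0.20 (adjusted p = 0.11, limma), and the dimmer H19 probe gave -0.61 ± 0.19 (adjusted p = 0.155). Within slide 1 and within slide 2 it was -0.67 each. Without air 24 h replicate 1 it was -0.84 and called (adjusted p = 0.046), in 1 of 32 alternatives.

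Mest measured 5.57, 5.58, 5.50 and 5.33 in ozone 24 h lungs, against 5.77, 5.74, 5.80 and 5.81 in air 24 h lungs. Grb10 measured 3.86, 3.97, 3.87 and 3.89 in ozone 24 h lungs, against 4.19, 4.11, 4.03 and 4.09 in air 24 h lungs. In both genes every ozone lung lay below every air lung, which 11.8% of all genes also met in 1 direction or the other. The log2 differences were -0.28 ± 0.11 for Mest (adjusted p = 0.223, limma) and -0.21 ± 0.09 for Grb10 (adjusted p = 0.338). Mest was called in the authors' log2 table (-0.34, adjusted p = 0.0101), and with weights for each array both Mest (-0.28, adjusted p = 0.0233) and Grb10 (-0.22, adjusted p = 0.0418) were. Mest was thus called in 2 of 32 alternatives and Grb10 in 1 of 32. The second Grb10 probe had the opposite sign, 0.14 ± 0.12, and the dimmest gave -0.32 ± 0.14, neither called.

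Peg3 measured -0.49, -0.01, 0.09 and 0.17 in ozone 24 h lungs, against 0.17, 0.33, 0.13 and 0.38 in air 24 h lungs. The groups overlapped by 1 ozone and 1 air lung. The log2 difference was -0.31 ± 0.13 (adjusted p = 0.301), with -0.50 within slide 1, where ozone replicate 1 is the lowest lung, and -0.13 within slide 2. Igf2 averaged 2.92 ± 0.06 in ozone 24 h lungs and 2.97 ± 0.20 in air 24 h lungs (SD, n = 4 each), a log2 difference of -0.05 with a 95% interval from -0.32 to 0.23. Dlk1, Plagl1, Ndn, Cdkn1c and Igf2r lay between -0.12 and 0.10, with overlapping groups. All 7 proliferation markers fell in ozone 24 h lungs, with sums of 31.3 to 39.5 in ozone 24 h lungs and 52.3 to 56.0 in air 24 h lungs. Xist was above 0 in fewer ozone 24 h lungs, 1 of 4, against 3 of 4 air 24 h lungs, and with Xist as a covariate H19 was -0.65 (adjusted p = 0.27), Mest -0.28 (adjusted p = 0.445) and Grb10 -0.21 (adjusted p = 0.559).

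The ozone effect at 24 h minus the effect at 6 h called 0 of the 10 genes, against 0.0647% of all genes, 0.0462% higher and 0.0185% lower. Limma had 1 of the 10 at an unadjusted p under 0.05, namely Peg3. Its ozone effects of -0.31 at 24 h and 0.42 at 6 h differed by -0.73 ± 0.19 (adjusted p = 0.127, unadjusted p = 0.0012), and the second Peg3 probe gave -0.68 ± 0.26. The difference of Peg3 was called in 2 of 28 alternatives, with normexp background correction (-0.63, adjusted p = 0.0466) and with array weights (-0.72, adjusted p = 0.023). It was -0.32 with the mean of its 3 probes (adjusted p = 0.674). H19 differed by -0.56 ± 0.28 and Dlk1 by -0.34 ± 0.19, neither called. The comparison of the air lungs shares its arrays with both ozone comparisons, so their signs are not independent. The shared air 24 h lungs favour opposite signs at 24 h, as for H19 and Peg3. The shared air 6 h lungs favour like signs at 6 h, as for Dlk1 and Peg3.

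Of 21 imprinted neighbours of the 10 genes, chosen at first, 19 were tested. In air 24 h against air 6 h lungs 0 of them rose and 6 fell, where 21.4% of all genes were higher and 28.5% lower. A wider list, of all listed imprinted genes in the same domains, was counted after its values were seen, and it moved in both directions. Of 31 such genes 28 were tested, and in air 24 h against air 6 h lungs 4 rose and 8 fell, against 21.4% higher and 28.5% lower over all genes. Those that rose were Snrpn, in the domain of Ndn, by 0.86 (SE 0.13), Kcnq1, the host gene of Kcnq1ot1, by 0.73 (SE 0.10), Atp10a by 0.59 (SE 0.14) and Tssc4 by 0.40 (SE 0.07). Those that fell were Usp29, Copg2, Magel2, Slc22a18, Kcnq1ot1, Cd81, Ube3a and Nap1l4. The split thus depends on which neighbours are counted. Peg3 was higher by 1.01 while Usp29, transcribed from the same bidirectional promoter region, fell by 1.36 (SE 0.37), although the other Usp29 probe had the opposite sign. Ndn was higher by 0.82 while its neighbour Magel2, another MAGE gene, fell by 0.46 (SE 0.12). Meg3, the maternally expressed noncoding RNA beside Dlk1, gave 0.04 ± 0.16. Copg2 fell by 1.09 beside Mest, and Airn, the RNA antisense to Igf2r, gave 0.26 ± 0.14 beside the rise of Igf2r by 0.53. Of their other probes, 1 each of Copg2, Airn and Slc22a18 and 2 each of Kcnq1ot1 and Nap1l4 had the opposite sign.

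In the Grb10 domain the ozone calls at 6 h fell on the neighbours. Ddc, which makes dopamine and serotonin from their precursors, fell by 0.59 in ozone 6 h lungs (SE 0.10, adjusted p = 0.00366, limma), and Cobl, an actin nucleator, rose by 0.35 (SE 0.08, adjusted p = 0.0226). The other Ddc probe, the dimmer one, had the opposite sign, 0.28 ± 0.21, and was not called. Grb10 itself gave -0.13 ± 0.09. Ddc was the only gene of the other imprinted genes whose ozone effect differed between times (0.85 ± 0.14, adjusted p = 0.0296), and its other probe again had the opposite sign (-0.47 ± 0.30, not called). Of 57 other imprinted genes, 51 were tested. In air 24 h against air 6 h lungs 10 rose and 18 fell, against 21.4% higher and 28.5% lower over all genes. The median of the 51 was -0.19, against 0.01 over all genes tested and 0.44 for the 10 genes. Nnat, the paternally expressed neuronatin, rose by 1.15, while the ubiquitin ligase Ube3a fell by 1.06 and Mcts2 fell by 1.19. At 6 h after ozone 1 of the 51 rose and 2 fell, against 1.36% higher and 3.12% lower over all genes, and Commd1 fell by 0.57. At 24 h after ozone limma called 0 of the 51, against 2.01% of all genes. An unadjusted p under 0.05 was met by 5 of the 51 and by 13.3% of all genes.

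Of 16 partners of IGF signalling 15 were tested, and some were called in the ozone comparisons. At 6 h 1 rose and 1 fell, where 4.49% of all genes were called. At 24 h 1 rose and 1 fell, where 2.01% of all genes were. Igf1, the postnatal growth factor that signals through the same receptor as IGF2, fell by 0.48 in ozone 6 h lungs (SE 0.11, adjusted p = 0.0195, limma), and Igfbp6, the binding protein that prefers IGF2, rose by 0.43 (adjusted p = 0.033). At 24 h Igfbp6 was again higher in ozone lungs by 0.53 ± 0.11 (adjusted p = 0.014), and Igfbp2 fell by 0.77 (SE 0.15, adjusted p = 0.011). In air 24 h against air 6 h lungs 3 partners rose and 2 fell, against 21.4% higher and 28.5% lower over all genes. Among them Igfbp4 rose by 0.80 and Igfbp2 by 0.55. Igf1 fell by 0.40 and Igfbp7 fell by 0.30. Igf1r, the signalling receptor, gave 0.24 at 6 h and -0.21 at 24 h of ozone against air, neither called.

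Of 13 fetal growth regulators that are not imprinted, 11 were tested, and 3 rose and 4 fell in air 24 h against air 6 h lungs. Over all genes 21.4% were higher and 28.5% lower there. Igf2bp2, which binds Igf2 mRNA, fell by 0.60 and Hmga2 fell by 0.77, while Igf2bp1 rose by 0.51. Both other probes of Igf2bp1 and 1 of the 2 others of Hmga2 had the opposite sign. Ezh2, the methyltransferase of the Polycomb complex, rose by 0.40. In ozone against air, Ezh2 was the only gene of this list that limma called, with log2 differences of -0.24 ± 0.07 at 6 h (adjusted p = 0.0441) and -0.30 ± 0.07 at 24 h (adjusted p = 0.0216). That is 1 of the 11 at each time, where 4.49% of all genes were called at 6 h and 2.01% at 24 h.

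Lungs of a group also differed from each other in Igf2. Over 16 lungs, each taken as the deviation from its group mean, the genes most like Igf2 were Ren1 (r = 0.94), Sema3d (0.93), Cntnap2 (0.88), Aldh1a2 (0.88) and Crb2 (0.87), out of 21622 genes with a median r of 0.02. The other Igf2 probe gave r = 0.87. Of the other members H19 was nearest, at rank 110 (r = 0.71), followed by Dlk1 at rank 225 (r = 0.66) and Cdkn1c at rank 785 (r = 0.56), while Peg3 gave r = -0.07. The points share arrays and scaling, and these values are a description with no test.

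Plagl1 is known from mouse to bind the motif GGGGCCCC and to act on other imprinted genes, so the 250 bases upstream of the start sites of the 10 genes were searched for it. The motif is its own reverse complement, so both strands give the same matches. RefSeq promoters on build GRCm38.p6 were in the table for 8 of the 10 genes, 14 start sites in all, and not for H19 and Cdkn1c. One of the 14 held the motif, that of Peg3, and so did 0.889% of 32851 promoters of all genes. The Peg3 sequence, chr7:6730420-6730669 on the minus strand, is shown because it alone of the 14 held the motif, given in capitals. The match is a description and no evidence of binding.
Peg3, upstream of the start site: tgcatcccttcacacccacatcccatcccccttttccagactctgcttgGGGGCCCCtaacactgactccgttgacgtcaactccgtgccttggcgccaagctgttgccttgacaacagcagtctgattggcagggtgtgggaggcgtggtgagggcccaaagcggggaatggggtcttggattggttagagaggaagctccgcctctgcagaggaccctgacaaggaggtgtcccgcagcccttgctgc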

How the data were processed

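Total RNA of 16 whole lungs, 4 per group, was labelled with Cy3 per the labels' protocols. The deposited scanner files, written by Agilent Feature Extraction (named in the submitters' processing notes; version 10.7.1.1 per the file headers), hold 1-colour intensity values with background subtracted and spatial trends removed, not scaled between arrays. Other values in these deposited files flag each spot as well above background, saturated (0 spots) or uneven. A further table, of log2 values, was deposited by the authors. The median of its column medians was 6.41 for 6 h arrays and 6.73 for 24 h arrays. Whether each time point was normalized separately was not tested. Each column correlated with the log2 signal of its own array at r of at least 0.990, and its direction follows it, while how its background was treated remains unknown. It served as an alternative within each time point.

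Spots of a probe were averaged without uneven spots (157 probes had no other spot and were left out), and log2 signals were set relative to the 75th percentile of each array. Probes well above background on at least 4 arrays were kept (32332), and the brightest probe stood for each of 21623 genes. Of the probes, 25097 were named by accession, 6333 by symbol and 1640 by synonym from RefSeq's table, and 8104 kept the name in the files.

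A linear model with 1 mean per group was fitted over all 16 arrays with limma 3.58.1 (lmFit, then eBayes with trend) under R 4.3.3. P-values are two-sided and Benjamini-Hochberg adjusted over all genes, or over all kept probes where another probe of a gene is given. Errors of differences are standard errors, and the number of arrays limits the precision. The fit was tested on simulated data. Nothing in the labels says that lungs of a group came from separate litters, and the model had no term for litter. The p-values set group differences against the spread between these lungs, taken as independent. What shared litters do to them was not tested.

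Samples with the same replicate number did not deviate together in every pair (correlations of -0.01 to 0.19 in the ozone comparisons), so the numbers were not taken as pairs. Every one of the 10 genes is named with its probes, and from each other list the up to 4 called genes with the smallest p per comparison, imprinted neighbours, 3 further markers or marker values (Msln, Wt1, Xist) and 5 genes most like Igf2. Genes named beyond this rule in counts of 8 or fewer, and the count over all listed imprinted genes of the same domains, were chosen after their values were seen. The 10 genes, the lists and the tests were chosen with earlier results of these data known.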

Additional observations from a re-analysis of the deposited data

Results flagged for a closer look

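Among 40 groups of 4 lungs (10 genes in 4 groups), 4 had a lung whose gap to its nearest neighbour was above Dixon's 95% critical value for 4 samples, where chance alone gives about 1 in 20. Igf2 was 4.28 in 1 ozone 6 h lung, above the other 3 at 4.00 to 4.03, and 2.84 in 1 ozone 24 h lung, below the others at 2.94 to 2.96. H19 was 3.00 in air 24 h replicate 1, below the other air 24 h lungs at 3.66 to 3.71. Ndn was 1.00 in 1 ozone 24 h lung, below the others at 1.18 to 1.20.

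For Igf2 and Peg3, every ozone 6 h lung lay above the mean of the air 6 h lungs, and every ozone 24 h lung lay below the mean of the air 24 h lungs. The ozone effect at 24 h minus that at 6 h was -0.26 for Igf2 (adjusted p = 0.595 from limma) and -0.73 for Peg3 (adjusted p = 0.127 from limma), so neither passed the test of the difference.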

How the results depend on the processing

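In air 24 h minus air 6 h lungs, Igf2, H19, Ndn, Igf2r, Plagl1 and Grb10 kept direction and call in all 28 alternatives. Of the alternatives 16 leave out 1 array, and where that array is of neither group compared, only the error can change. The counts of alternatives are therefore not counts of separate checks. Peg3 kept direction and call in 27, and lost its call with the mean of its probes. Mest kept its call in 24, turning to 0.14 after quantile normalization and 0.11 after cyclic loess (an alternative chosen after seeing the data), where Cdkn1c turned to 0.013 and 0.021. In ozone minus air at 6 h, 1 of the 10 genes was called after quantile normalization, cyclic loess, within slide 2 (Dlk1 each) and with array weights (Peg3), and 0 to 1 when 1 array was left out. All genes called there, 970 in the report, numbered 1814 with array weights, 558 with Xist as a covariate, 53 within slide 1, 100 from only the 8 arrays of 6 h, 110 in the authors' log2 table, and 196 to 1690 with 1 array left out (196 without air 6 h replicate 4). Differences near 0 changed sign at 6 h: Mest to 0.0047 after quantile normalization, 0.16 within slide 2 and 0.0079 in the authors' table, Grb10 to 0.058 with the mean of probes and 0.044 within slide 2, Plagl1 to -0.014 with array weights and -0.053 within slide 1, Cdkn1c to -0.014 and Igf2r to -0.0057 within slide 1, Ndn to 0.12 within slide 2. With 1 array left out H19 ranged from -0.25 to 0.030 and Plagl1 from -0.0030 to 0.13. In ozone minus air at 24 h, 2 of the 10 genes were called with array weights (Grb10 and Mest), 1 in the authors' table (Mest) and 0 to 1 with 1 array left out. All genes called, 434 in the report, numbered 1737 with array weights (1007 of them higher), 245 with Xist as a covariate, 47 within slide 1, 255 within slide 2, 762 in the authors' table and 264 to 530 with 1 array left out. Normexp turned Igf2 to 0.056, Plagl1 to 0.00998, Ndn to 0.0023 and Igf2r to 0.017, Xist as a covariate turned Dlk1 to -0.015, Plagl1 was 0.0091 within slide 1, Cdkn1c 0.054 within slide 2, and Igf2 ranged from -0.12 to 0.024 with 1 array left out. For the difference between times, 1 of the 10 genes (Peg3) was called with normexp and with array weights. All genes called, 14 in the report, numbered 536 with normexp, 37 after quantile normalization, 441 with array weights, 6 with slide as a fixed block and 0 to 263 with 1 array left out. Normexp turned Mest to 0.0066 and Grb10 to 0.0502, and with 1 array left out Ndn ranged from -0.027 to 0.18 and Grb10 from -0.14 to 0.027. The causes were not tested. Normexp moved the median difference of all genes to 0.20 between the air groups, against 0.01 in the report, and to 0.14 at 6 h and -0.13 at 24 h of ozone minus air. It gave 153 higher of 955 calls at 6 h and 323 higher of 645 at 24 h, against 295 of 970 and 148 of 434.

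With the replicate number as a block (replicate block), 247 genes were called at 6 h, 261 at 24 h, 1 for the difference and 10158 between the air groups, and of the 10 genes 0, 0, 0 and 8. The numbers were not shown to pair the lungs. Of 1200 values of the 10 genes under alternatives, 30 changed sign. Some of the 1200 could not change sign, since their fit left the difference itself as it was.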
